A study of Mus musculus with 12 samples.

Results

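Tumour-associated macrophages (TAMs) lacking Cd36 were compared with wild-type (WT) TAMs on 6 single-channel microarrays, 3 of knockout (KO) TAMs and 3 of WT TAMs, out of 12 arrays in the series. KO stands for the Cd36 knockout. The comparison covered the 21065 autosomal genes read by a probe set annotated to 1 gene symbol, of 22180 genes tested in all, and the probe set with the highest mean was kept where a gene had several. No measured value chose these genes. Both TAM groups were mouse primary macrophages cultured for 72 h with 5TGM1, a mouse multiple myeloma line. The other 6 arrays held WT and KO macrophages, 3 each, for which no co-culture is labelled and no time in culture is given, and they are used here to set the spread and to show where the difference between TAMs stood apart. The tissue that the macrophages came from, how the Cd36 allele was made, how myeloma cells were removed before RNA was taken, and whether replicates were separate animals or cultures are not given here by the labels. The p-values therefore rest only on how far these samples differ within a group, which may be technical spread.

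Cd36 is a membrane protein through which macrophages import fatty acids and bind oxidised lipoproteins, next to other scavenger receptors. Imported fatty acids are bound by carrier proteins, stored in lipid droplets, burnt in mitochondria, or used as ligands of nuclear receptors such as PPAR gamma. Macrophages in tumours shape their surroundings through chemokines, matrix proteases, growth factors and antigen presentation, and their state is often described by how strongly interferon-driven or repair genes are expressed.

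Levels are given as log2 intensity, and differences as KO minus WT on the log2 scale ± the standard error (SE) that limma gave, for n = 3 arrays in each group. A gene was called, and is said to have risen or fallen, where its adjusted p was under 0.05. A call is said to have been kept where the gene was also called in a fit on the 6 TAM arrays alone and in every fit that left out 1 TAM array. The number of arrays limits the precision.

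On every TAM array the macrophage gene Adgre1 lay at 12.16 to 12.76 and Cd68 at 12.79 to 13.07, far over the median mean level of all genes (5.34). Low levels were read for 4 plasma cell genes, from 3.42 to 3.79 for Tnfrsf17, 3.48 to 3.75 for Jchain, 4.27 to 4.61 for Pou2af1 and 5.16 to 5.46 for Mzb1. The summed intensity of 13 T and NK cell markers was 339 to 398 on WT and 575 to 1203 on KO TAM arrays, with 11 of them below 6 on all arrays. That of 9 resident peritoneal macrophage markers was 1735 to 3123 and 2937 to 4295, with 5 below 6, among them Gata6 (3.90 to 4.10). Fibroblast and stromal markers were not low. The summed intensity of 14 such markers was 5290 to 12651 on WT TAM arrays and 992 to 3094 on KO TAM arrays, and 3140 to 3668 and 705 to 737 on WT and KO macrophage arrays. The summed intensity of 14 plasma and myeloma cell markers was 6577 to 7055 in WT TAMs and 7146 to 7863 in KO TAMs. It was 5870 to 6102 on WT and 6333 to 6464 on KO macrophage arrays, for which no co-culture is labelled. Of these markers 6 lay below 6 on all arrays. In bulk RNA, fewer cells of a type and less RNA per cell cannot be told apart. Xist, expressed from an inactive X chromosome, read 11.14 to 11.24 on WT TAM arrays and 3.91 to 4.23 on KO TAM arrays, and the Y-linked gene Uty read 3.29 to 3.91 and 9.71 to 9.86. The labels give no sex, so genotype and this XX or XY pattern cannot be told apart in any difference below. Of 899 X-linked genes, which are not counted below, 13.2% were called.

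The arrays WT TAM 2 and KO TAM 1 stood apart from their groups, with estimated array weights of 0.329 and 0.266 against 0.658 to 2.52 for the other TAM arrays. Across genes, KO TAM 1 correlated with the WT TAM arrays at 0.980 to 0.987, KO TAM 2 at 0.979 to 0.980 and KO TAM 3 at 0.971 to 0.973. Pairs within a group correlated at 0.987 to 0.995 in WT TAMs and 0.982 to 0.994 in KO TAMs. The median SD over genes was 0.14 in both TAM groups, against 0.096 in WT and 0.1 in KO macrophages. KO TAM 1 thus lay closer to the WT arrays than the other KO arrays did, and leaving out these 2 arrays together, a choice made after the data were seen, is reported beside the results that lead each account.

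Cd36, the targeted gene on chromosome 5, was lower on every KO array. Its level was 12.14, 12.53 and 12.29 on WT TAM 1, 2 and 3 and 8.45, 9.66 and 8.64 on KO TAM 1, 2 and 3. The groups did not overlap, and KO TAM 2 read highest of the KO arrays. The difference was -3.41 ± 0.24 (10.6-fold lower, adjusted p = 2.45e-05), which left 9.44% of the WT intensity, and the call was kept (-3.07 without WT TAM 2 and KO TAM 1). The two-sided exact permutation p was 0.1, the smallest that 3 arrays against 3 can give. A single probe set read the gene, and the part of the transcript that it reads is not stated by the labels.

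Across the autosomes, KO TAMs had lower expression of cell division, matrix and S100 genes and higher expression of some lectin, guanylate binding protein and Toll-like receptor genes. In all 2577 of 21065 genes were called, 12.2%, of which 1047 rose (4.97%) and 1530 fell (7.26%). These shares are the background for every count of list members below. Falls were also larger than rises, since 512 genes fell and 93 rose by more than 1, and 80 fell and 14 rose by more than 2. The share of called genes that rose was 40.6%, and 27.3% (702 against 1874) when each array was centred on its median. In 5214 genes (24.8%) the 3 KO and the 3 WT arrays did not overlap, 2429 of which were called. Calls were spread over the genome, from 9.19% of genes on chromosome 7 to 14.1% on chromosome 3, with 12.3% on chromosome 5, which carries Cd36.

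The number of calls depended on which arrays were used and how they were weighted. Leaving out or weighting TAM arrays changes the group means as well as the spread. On the 6 TAM arrays alone 608 genes were called, 163 higher and 445 lower, without KO TAM 2 1659, with array weights 4511, and without WT TAM 2 and KO TAM 1 together 4280, 1765 higher and 2515 lower. The calls of 596 genes were kept, 156 higher (0.741%) and 440 lower (2.09%). Among the genes that rose, KO TAM 1 was the lowest KO array in 541, and among those that fell it was the highest in 878 and KO TAM 3 the lowest in 866.

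The largest falls after Cd36 included those of a protease, matrix proteins and a calcium-binding protein, and several were graded over the KO arrays. Mmp12, Postn, S100a6, Npy, Tnc, H1f5 and Timp3 were also called lower in KO than in WT macrophages, so these falls were not particular to TAMs. Mmp12, the macrophage metalloelastase, read 11.41, 11 and 11.54 on WT TAM 1, 2 and 3 and 9.13, 8.96 and 5.80 on KO TAM 1, 2 and 3. It fell 10.2-fold (-3.36 ± 0.64, adjusted p = 0.00544), with every KO array below every WT array and KO TAM 3 far below the others. S100a6, a calcium-binding protein of dividing cells, read 9.51, 9.80 and 9.59 in WT and 7.96, 7.25 and 5.44 in KO TAMs, a fall of 6.72-fold (-2.75 ± 0.46, adjusted p = 0.00257). The same order of KO arrays was seen in Dhrs9, a retinol dehydrogenase, at 9.53, 8.45 and 9.40 in WT and 8.27, 6.25 and 4.26 in KO TAMs (-2.87 ± 0.72, adjusted p = 0.0216). On the 6 TAM arrays alone the adjusted p was 0.0774 for Mmp12, 0.0501 for S100a6 and 0.139 for Dhrs9, and Dhrs9 also lost its call without WT TAM 1, WT TAM 3 or KO TAM 2 (adjusted p up to 0.0715).

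Of the 12 largest falls, 4 kept their call, those of Cd36, Npy, H1f5 and Shcbp1. Npy, which encodes neuropeptide Y, read 9.31, 8.82 and 9.75 in WT TAMs and 7.48, 6.24 and 5.97 in KO TAMs, 6.62-fold lower (-2.73 ± 0.33, adjusted p = 0.00039). Shcbp1, a protein of the midbody in dividing cells, read 8.67, 7.91 and 8.96 and then 5.78, 6.53 and 5.67, 5.72-fold lower (-2.52 ± 0.25, adjusted p = 0.000166). In both genes the lowest WT array, WT TAM 2, stayed above the highest KO array by more than 1. The linker histone gene H1f5 fell by 2.65 ± 0.43 (adjusted p = 0.0022).

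The largest rises were in signalling, lectin and membrane protein genes, and in most of them KO TAM 2 and 3 stood high together. Clec4a4, an inhibitory C-type lectin receptor of myeloid cells, read 5.28, 4.62 and 5.33 on the WT TAM arrays and 7.46, 7.49 and 7.95 on the KO TAM arrays, 5.88-fold higher (2.56 ± 0.18, adjusted p = 2.45e-05). Calhm6, a membrane channel protein, read 5.41, 6.08 and 5.61 and then 7.46, 7.93 and 8.61 (2.30 ± 0.25, adjusted p = 0.000222). Cd4, which mouse myeloid cells express as well as helper T cells, read 7.14, 6.53 and 7.14 and then 8.28, 8.84 and 9.88 (2.06 ± 0.31, adjusted p = 0.0013). These 3 were the ones among the 12 largest rises whose call was kept. Of 13 measured T and NK cell markers, Cd4 was the 1 called, and 11 lay below 6 on all arrays.

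Spic, a transcription factor of iron-recycling macrophages, read 6.77, 7.86 and 6.69 in WT TAMs and 8.40, 10.38 and 10.80 in KO TAMs, 6.72-fold higher (2.75 ± 0.49, adjusted p = 0.00369). Rasgrp1, an activator of Ras, read 4.66, 4.51 and 4.94 and then 5.65, 8.34 and 8.42, 6.80-fold higher (2.77 ± 0.54, adjusted p = 0.0059). In both, KO TAM 1 lay nearer to the WT arrays than to the other KO arrays, although the groups did not overlap. On the 6 TAM arrays alone their adjusted p was 0.0625 and 0.0813, and without WT TAM 2 and KO TAM 1 the differences were 3.86 and 3.58. The DNA-sensing receptor gene Tlr9 (1.89 ± 0.32), the membrane protein genes Tmem176a (2.15 ± 0.45) and Tmem176b (1.89 ± 0.35), and Il2ra (1.95 ± 0.41), a subunit of the interleukin-2 receptor, rose in the same way, as did Asb2 (1.93), Cnksr3 (1.90) and Fam43a (1.86). None of these 7 was called on the 6 TAM arrays alone, where their adjusted p was 0.0542 for Tlr9, 0.0975 for Tmem176a, 0.0697 for Tmem176b, 0.0964 for Il2ra, 0.13 for Asb2, 0.145 for Cnksr3 and 0.129 for Fam43a. The last 3 also lost their call with WT TAM 3, KO TAM 2 or KO TAM 3 left out, and Cnksr3 without WT TAM 1 too, with adjusted p up to 0.0756 for Asb2, 0.093 for Cnksr3 and 0.0697 for Fam43a.

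**Figure D1:**
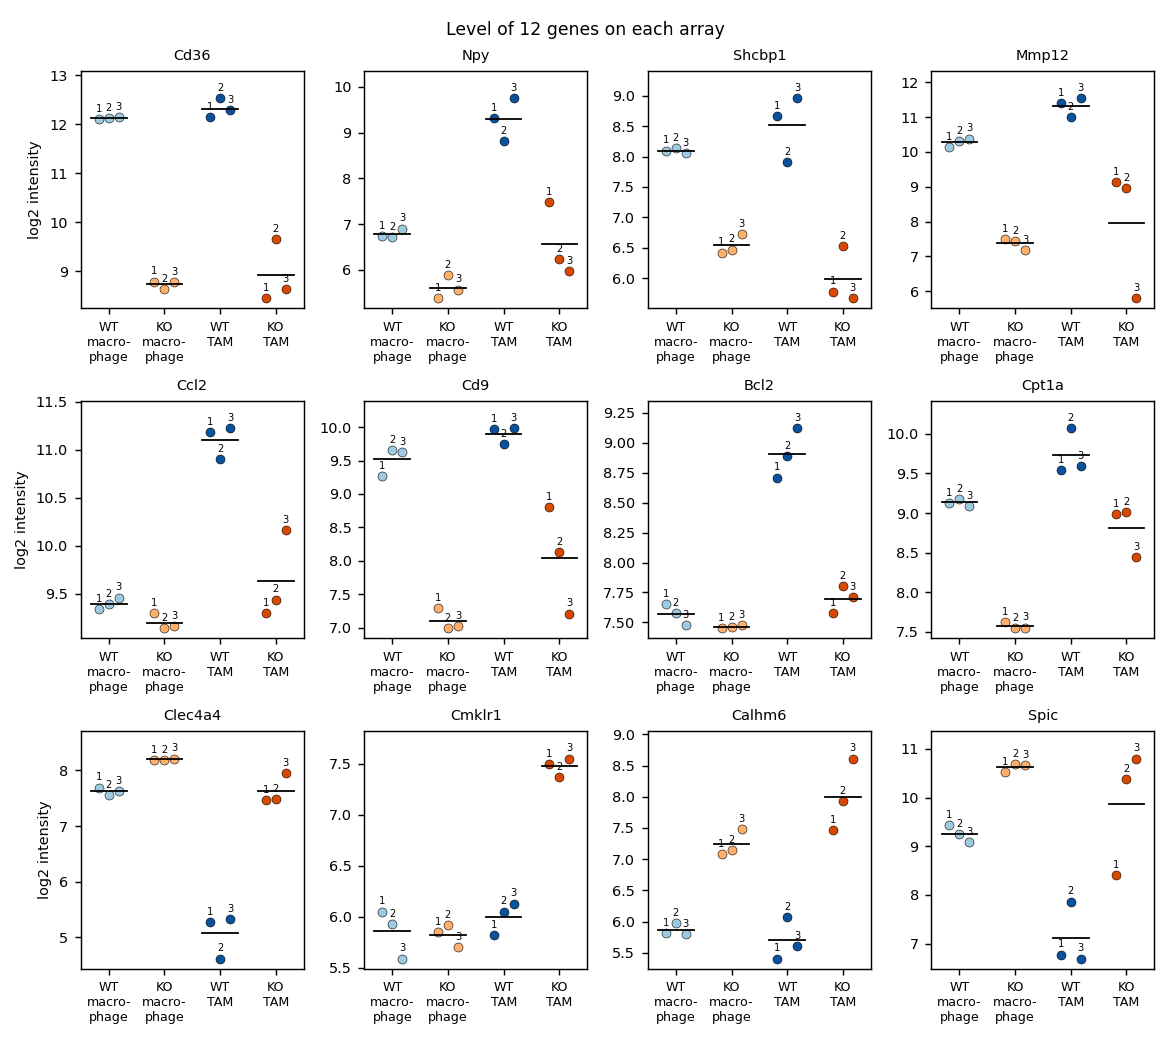
Log2 intensity (vertical axes, each scaled to its gene) of 12 genes on the 12 arrays, with 3 arrays per group numbered as replicates and the group mean as a line. Cd36 lay at 12.14 to 12.53 on WT TAM arrays and at 8.45 to 9.66 on KO TAM arrays, whereas in Spic and Mmp12 the KO TAM arrays were spread from 8.40 to 10.80 and from 5.80 to 9.13.

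The genes of DNA replication and mitosis fell together, and the mitosis list had the lowest median difference of the 50 lists. Cells copy their DNA in S phase with the MCM helicase, DNA polymerases and nucleotide-making enzymes, and then separate the chromosomes with cyclin B kinase, kinesins and the spindle checkpoint. All 29 measured mitosis and G2/M genes fell, with differences from -2.50 to -0.98 and a median of -2.13, and 23 of these calls were kept. Of 26 measured S phase genes 25 fell, with a median of -1.51, and 21 were kept. The exception was the transcription factor gene E2f1 (-0.36 ± 0.13, adjusted p = 0.108), named after its value was seen. The median over all autosomal genes was 0.02, and 7.26% of them fell.

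The mean level of the mitosis genes was 9.14, 8.21 and 9.33 on WT TAM 1, 2 and 3 and 7.22, 7.0 and 6.28 on KO TAM 1, 2 and 3. That of the S phase genes was 8.18, 7.76 and 8.45 and then 6.61, 6.84 and 6.66. WT TAM 2 was the lowest WT array in all 29 mitosis genes and in 22 of 26 S phase genes, and even so lay above KO TAM 1 in 29 and 25 of them. Without WT TAM 2 and KO TAM 1 all 29 and all 26 were called lower. By the mitosis list mean these were the lowest WT and the highest KO array, so leaving them out widens that difference by construction.

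In the S phase list the largest falls were those of Rrm2, a subunit of ribonucleotide reductase, and of the helicase subunit Mcm5. Rrm2 read 7.86, 7.96 and 8.27 in WT TAMs and 5.62, 6.22 and 5.26 in KO TAMs, 5.02-fold lower (-2.33 ± 0.20, adjusted p = 7.21e-05). Mcm5 read 8.97, 8.08 and 9.27 and then 6.24, 6.83 and 6.33, 4.95-fold lower (-2.31 ± 0.24, adjusted p = 0.000208). DNA polymerase epsilon (Pole, -2.12 ± 0.20) and Mcm7 (-2.07 ± 0.20) fell by similar amounts, and all 4 calls were kept. With the mean of a gene's probe sets the difference was -1.27 for Rrm2 and -1.1 for Pole, both still called.

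Among mitosis genes Ccnb2, which encodes cyclin B2, read 10.09, 9.0 and 10.31 in WT TAMs and 8.38, 7.46 and 6.04 in KO TAMs (-2.50 ± 0.47, adjusted p = 0.00464). Prc1, which bundles microtubules of the dividing spindle, read 9.86, 9.04 and 10.15 and then 7.68, 7.48 and 6.50 (-2.46 ± 0.29, adjusted p = 0.00037). The survival and spindle protein gene Birc5 (-2.48 ± 0.31) and the cyclin A gene Ccna2 (-2.46 ± 0.42) fell by similar amounts. The calls of Prc1 and Birc5 were kept, and on the 6 TAM arrays alone the adjusted p was 0.0718 for Ccnb2 and 0.0552 for Ccna2.

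The same lists were lower in KO than in WT macrophages, cells for which no myeloma co-culture is labelled. There 27 of 29 mitosis genes fell with a median of -1.44 and 23 of 26 S phase genes with a median of -0.97, where 6.2% of all autosomal genes fell. All 55 differences were further below 0 in TAMs than in macrophages, but in 0 of the 55 genes did limma call the difference between the 2 cultures, and in 17 its unadjusted p was under 0.05. Markers of other cells also changed, where 4.97% of all autosomal genes rose and 7.26% fell. Of 14 stromal markers 10 fell and 0 rose. In the plasma and myeloma list Ccnd2 fell (-1.93) and Slamf7 rose (0.38). In the B cell list Ebf1 fell (-1.83) and Cd79b (1.50) and Cd22 (1.22) rose. In the endothelial list Kdr (-1.27) and Eng (-0.86) fell and Pecam1 rose (1.71). The part of other cells in the result was not tested. Within WT TAMs the array lowest in mitosis genes, WT TAM 2 (8.21), was the highest in stromal markers (8.59). Within KO TAMs the order was the other way. KO TAM 3 was the lowest in mitosis genes (6.28) and in stromal markers (5.80), and KO TAM 1 the highest in both (7.22 and 7.03). The summed intensity of the 14 plasma and myeloma markers, given above, was higher in KO than in WT TAMs. Their mean log2 level was not, at 6.63, 6.78 and 6.61 in WT and 6.64, 6.42 and 6.27 in KO TAMs. Of their differences 7 were above 0 and 7 below.

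**Figure D2:**
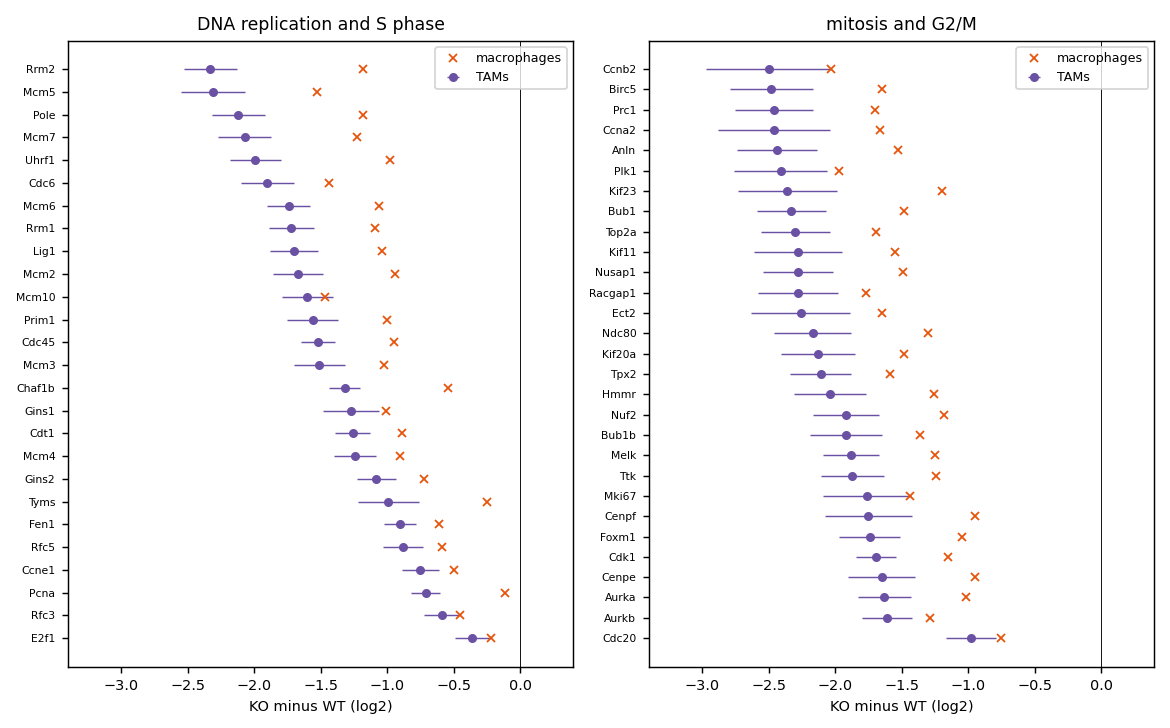
KO minus WT difference (log2, horizontal axes) of the 26 S phase and 29 mitosis genes. Points are TAMs with the standard error of the limma fit, crosses are macrophages, and every point lies below 0, between -0.36 and -2.33 on the left and between -0.98 and -2.50 on the right.

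Promoter sequences of 4 of the genes that fell are shown because cell cycle promoters are known for CCAAT boxes, bound by the factor NF-Y, and for E2F sites. RefSeq sequences of the table's build GRCm38.p6 are given from 250 bases before the gene's start up to the start, 5′ to 3′ on the gene's strand, with the motif, on either strand, in capitals.
Ccnb2 (chr9:70421555-70421804, minus strand, CCAAT): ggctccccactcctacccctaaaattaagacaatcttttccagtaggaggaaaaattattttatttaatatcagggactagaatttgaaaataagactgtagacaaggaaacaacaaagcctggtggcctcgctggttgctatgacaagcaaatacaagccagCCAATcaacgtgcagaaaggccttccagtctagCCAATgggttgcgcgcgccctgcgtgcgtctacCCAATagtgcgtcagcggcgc
Prc1 (chr7:80294201-80294450, plus strand, CCAAT): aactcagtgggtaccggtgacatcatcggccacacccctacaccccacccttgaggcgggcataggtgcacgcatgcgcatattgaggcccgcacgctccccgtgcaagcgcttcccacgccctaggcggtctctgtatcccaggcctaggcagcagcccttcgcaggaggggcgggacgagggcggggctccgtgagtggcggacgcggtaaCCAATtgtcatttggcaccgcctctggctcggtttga
Mcm5 (chr8:75109259-75109508, plus strand, E2F): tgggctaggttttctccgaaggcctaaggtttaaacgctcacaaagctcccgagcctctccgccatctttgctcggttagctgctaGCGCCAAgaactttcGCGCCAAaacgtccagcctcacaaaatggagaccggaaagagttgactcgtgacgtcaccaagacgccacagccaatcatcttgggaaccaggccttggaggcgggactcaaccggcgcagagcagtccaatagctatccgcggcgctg
Mcm7 (chr5:138171884-138172133, minus strand, E2F): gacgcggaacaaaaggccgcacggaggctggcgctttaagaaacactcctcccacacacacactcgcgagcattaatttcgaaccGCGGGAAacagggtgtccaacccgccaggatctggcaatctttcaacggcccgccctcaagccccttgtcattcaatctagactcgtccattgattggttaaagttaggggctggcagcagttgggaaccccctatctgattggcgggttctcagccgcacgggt

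The letters CCAAT, searched on both strands, were found in the 250 bases before 18 of 24 mitosis genes with a sequence and before 35.3% of the 16221 autosomal genes with one. CCAAT was also found before 13 of 22 S phase genes, 6 of 19 type I interferon genes and 6 of 11 interferon gamma and guanylate binding genes. Over all called genes the share was 40.1% of those that fell and 31.9% of those that rose. In Ccnb2 the 3 boxes start 87, 54 and 21 bases before the start of the gene, and in Prc1 the box starts 37 bases before it. The E2F letters TTGGCGC or TTCCCGC were found before 8 of 22 S phase genes, before 7.3% of all genes, and before 13.3% of the genes that fell and 6.61% of those that rose. CCAAT read on the other strand can overlap TTGGCGC. The motifs were chosen with results of these data known, and a match describes letters in this window only.

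Genes of the extracellular matrix and of its breakdown fell, as did stromal markers, though not all in the same order of arrays. Of 11 measured matrix metalloproteinase and inhibitor genes 5 fell and 0 rose, with a median of -1.74. In KO against WT macrophages 8 of the 11 fell, with a median of -2.02, so these falls were not particular to TAMs. Mmp13, a collagenase, read 7.67, 8.52 and 8.03 in WT TAMs and 6.13, 6.50 and 6.35 in KO TAMs, 3.35-fold lower (-1.74 ± 0.20, adjusted p = 0.000298), and its call was kept, as was that of the sheddase Adam8 (-1.74 ± 0.28). The gelatinase Mmp2 (-2.21 ± 0.42) and the inhibitor Timp3 (-2.64 ± 0.48) were called, with an adjusted p of 0.0697 and 0.0609 on the 6 TAM arrays alone.

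Of 14 measured fibroblast and stromal markers 10 fell and 0 calls were kept, with a median of -1.42. Postn, a matrix protein of fibroblasts, read 9.54, 10.94 and 10.02 in WT TAMs and 8.44, 7.98 and 5.12 in KO TAMs (-2.98 ± 0.65, adjusted p = 0.0116). Acta2, the smooth muscle actin of myofibroblasts, read 10.82, 11.96 and 11.22 and then 9.83, 9.87 and 6.73 (-2.52 ± 0.64, adjusted p = 0.0236). WT TAM 2 was the highest and KO TAM 3 the lowest TAM array in both genes and in the list mean, which was 7.48, 8.59 and 7.63 in WT and 7.03, 6.72 and 5.80 in KO TAMs. The collagen I genes Col1a1 (-2.32 ± 0.47) and Col1a2 (-2.39 ± 0.39), fibronectin (Fn1, -2.58 ± 0.61), tenascin C (Tnc, -2.68 ± 0.50) and the chemokine gene Cxcl12 (-1.95 ± 0.37) were called too. The call of Fn1 was lost without WT TAM 2 (adjusted p = 0.0567), and that of Acta2 without WT TAM 2 or WT TAM 3 (up to 0.0743). Stromal markers were also lower in KO than in WT macrophages, with 8 of 14 called. The part that cells other than macrophages had in the falls of Mmp2, Timp3, Tnc, Fn1 and Cxcl12 was not tested.

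The urokinase gene Plau, whose product activates plasmin at the cell surface, read 10.18, 9.80 and 10.37 in WT TAMs and 8.69, 8.41 and 8.55 in KO TAMs. It fell 2.96-fold (-1.56 ± 0.14, adjusted p = 8.05e-05) and kept its call. Of 14 angiogenic and urokinase genes 3 fell and 0 rose, the other two being the urokinase receptor gene Plaur (-1.11, lost without KO TAM 2, adjusted p = 0.0603) and the growth factor gene Pdgfa (-0.50, lost without WT TAM 1, WT TAM 3, KO TAM 2 or KO TAM 3, adjusted p up to 0.0916). The angiogenic factor gene Vegfa read 8.72, 10.64 and 8.63 in WT and 9.50, 9.85 and 9.66 in KO TAMs and was not called (0.34 ± 0.39, adjusted p = 0.667). WT TAM 2 set most of its spread, and without WT TAM 2 and KO TAM 1 the difference was 1.07 (adjusted p = 0.000101). Of 8 S100 genes 4 fell, S100a6, S100a4 (-1.65 ± 0.22, kept), S100a10 (-1.45 ± 0.29) and S100a11 (-0.91 ± 0.17). The median of the 8 was -0.58 in TAMs and -0.91 in macrophages, where 5 fell.

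Among genes of fatty acid handling, the fatty acid transporter gene Slc27a1 fell with the least spread. It read 8.86, 8.95 and 8.92 in WT TAMs and 7.87, 7.74 and 7.68 in KO TAMs, 2.21-fold lower (-1.15 ± 0.08, adjusted p = 2.45e-05), and the call was kept. Of 14 measured uptake, binding and activation genes 4 fell and 0 rose. The lipoprotein lipase gene Lpl read 11.55, 11.81 and 11.87 and then 10.42, 11.34 and 10.96 (-0.84 ± 0.18, adjusted p = 0.00985, 0.102 on the 6 TAM arrays alone). The endocytic receptor gene Lrp1 (-0.76 ± 0.13) and the fatty acid binding protein gene Fabp7 (-0.98 ± 0.24) were the other 2, and without WT TAM 2 and KO TAM 1 the call of Fabp7 was lost (adjusted p = 0.0564). Fabp4, the abundant fatty acid binding protein of macrophages, read 11.68, 9.79 and 10.68 in WT TAMs and 11.63, 8.09 and 7.29 in KO TAMs and was not called (-1.71 ± 0.86, adjusted p = 0.245). KO TAM 1 read as high as the WT arrays there, and without it and WT TAM 2 the difference was -3.49 (adjusted p = 0.000223).

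Of the 16 other scavenger receptors 3 fell and 1 rose, where 7.26% of all genes fell and 4.97% rose. The macrophage scavenger receptor gene Msr1 read 11.99, 11.56 and 11.79 in WT TAMs and 11.44, 10.91 and 10.62 in KO TAMs (-0.79 ± 0.18, adjusted p = 0.013), a call lost without WT TAM 1 (adjusted p = 0.052). The collectin Colec12 fell by 1.30 ± 0.19 and kept its call. Scara3 fell (-0.84 ± 0.23), a call lost with WT TAM 2, KO TAM 2 or KO TAM 3 left out (adjusted p up to 0.117). Cd5l, a secreted protein of lipid-loaded macrophages, rose (0.83 ± 0.21), a call lost with WT TAM 3, KO TAM 2 or KO TAM 3 left out (up to 0.0971).

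Of 20 lipid droplet and lipolysis genes only Plin3 was called (-0.29 ± 0.09), and it lost its call without any of WT TAM 1, 2 and 3, KO TAM 2 and KO TAM 3 (adjusted p up to 0.137). The droplet coat gene Plin2 read 11.22, 12.43 and 11.38 in WT TAMs and 11.05, 11.20 and 10.74 in KO TAMs (-0.68 ± 0.24, adjusted p = 0.098), and was called without WT TAM 1 (-0.91, adjusted p = 0.0379). Of 21 fatty acid oxidation genes 4 fell and 0 rose, where 7.26% of all genes fell. Cpt1a, which commits fatty acids to mitochondria, read 9.54, 10.07 and 9.59 and then 8.99, 9.01 and 8.44 (-0.92 ± 0.16, adjusted p = 0.00325, 0.0598 on the 6 TAM arrays alone), with no overlap of the groups. The dehydrogenase gene Hadh (-0.46 ± 0.08) fell by less with less spread, and Pdk4 (-1.94 ± 0.49) and Etfb (-0.43 ± 0.11) lost their call without single arrays, KO TAM 2 or KO TAM 3 for Pdk4 (adjusted p up to 0.0907) and WT TAM 1, WT TAM 2, KO TAM 1 or KO TAM 3 for Etfb (up to 0.0811).

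Nuclear receptor genes and their target genes rose in 4 of 16 cases and fell in 0, with a median of 0.41, where 4.97% of all genes rose. Pltp, which transfers phospholipids between lipoproteins, read 12.03, 12.50 and 11.87 in WT TAMs and 12.81, 12.82 and 12.81 in KO TAMs (0.68 ± 0.13, adjusted p = 0.00529). Apoe, the apolipoprotein of cholesterol export, rose by 0.63 ± 0.11 (adjusted p = 0.003) and the receptor gene Rxra by 0.39 ± 0.09, the latter lost without WT TAM 3 (adjusted p = 0.0558). The fourth was Cd5l. Pparg itself (0.43 ± 0.15, adjusted p = 0.0836) and the cholesterol exporter gene Abca1 (0.74 ± 0.26, adjusted p = 0.0898) were not called. Without WT TAM 2 and KO TAM 1 both were (0.265, adjusted p = 0.0355, and 0.802, adjusted p = 0.0013), and Abca1 also without WT TAM 2 alone (1.06, adjusted p = 0.00812) and Pparg without WT TAM 3 alone (0.568, adjusted p = 0.0393). Of the 4 calls in the list 0 were kept.

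Sterol and fatty acid synthesis genes showed the largest spread within the genotypes. Of 23 such genes 0 were called by limma and 2 had an unadjusted p under 0.05, and their mean level was 9.23, 7.40 and 8.98 on WT TAM 1, 2 and 3 and 9.03, 7.53 and 8.14 on KO TAM 1, 2 and 3. WT TAM 2 was the lowest WT array in all 23 genes. Without WT TAM 2 and KO TAM 1 21 of the 23 were called lower, so the outcome for this list rested on those 2 arrays. By list mean these were the lowest WT and the highest KO array, so leaving them out widens the difference by construction.

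Glycolysis and hypoxia genes fell in 10 of 20 cases and rose in 2, with a median of -0.44, and 5 calls were kept. P4ha2, a collagen prolyl hydroxylase induced by hypoxia, read 6.45, 7.23 and 6.51 in WT TAMs and 5.67, 5.74 and 5.51 in KO TAMs (-1.09 ± 0.17, adjusted p = 0.0017, kept). The lactate exporter gene Slc16a3 fell (-0.91 ± 0.25) and the hypoxia gene Ndrg1 rose (1.61 ± 0.42), and both lost their call with WT TAM 1, KO TAM 2 or KO TAM 3 left out, Slc16a3 also without WT TAM 2 and Ndrg1 also without WT TAM 3 (adjusted p up to 0.116 and 0.112). Pfkfb3, which makes an activator of phosphofructokinase, rose by 0.87 ± 0.18 (adjusted p = 0.0093). Of 20 genes of the TCA cycle and respiratory chain 5 fell and 0 rose, among them Mdh2 (-0.53 ± 0.10), Cs (-0.38 ± 0.08), Atp5a1 (-0.32 ± 0.08) and Atp5b (-0.32 ± 0.08), and 0 of these calls were kept. Atp5a1 and Atp5b lost theirs without WT TAM 1, WT TAM 3 or KO TAM 2, and Atp5a1 without KO TAM 3 as well (adjusted p up to 0.094 and 0.0866). In macrophages 7 of the 20 TCA cycle and respiratory chain genes fell.

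Of 17 genes of the amino acid response and one-carbon synthesis 4 fell and 0 rose, where 7.26% of all genes fell. Psat1, an enzyme of serine synthesis, read 7.59, 8.04 and 7.83 in WT TAMs and 6.11, 6.56 and 6.82 in KO TAMs (-1.32 ± 0.17, adjusted p = 0.000462), and Shmt2, which moves its carbon into mitochondrial folate, read 8.32, 8.58 and 8.43 and then 7.16, 7.58 and 7.86 (-0.91 ± 0.15, adjusted p = 0.00273). Both calls were kept, and in both KO TAM 1 was the lowest array. The proline synthesis gene Aldh18a1 (-1.08 ± 0.25) and the amino acid transporter gene Slc7a5 (-1.11 ± 0.32) fell too, and Slc7a5 lost its call without any of WT TAM 1, 2 and 3 and KO TAM 2 (adjusted p up to 0.127).

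NRF2 antioxidant genes fell in 4 of 18 cases, where 7.26% of all genes fell, with 0 kept. These were Nqo1 (-1.01 ± 0.28), the thioredoxin reductase gene Txnrd1 (-0.57 ± 0.15), the glutathione peroxidase gene Gpx1 (-0.49 ± 0.14) and Gclc (-0.46 ± 0.11) of glutathione synthesis. All 4 lost their call without WT TAM 2 (adjusted p without single arrays up to 0.117, 0.0566, 0.155 and 0.0642). Nqo1 lost it also without KO TAM 2 or KO TAM 3, Txnrd1 without KO TAM 1, Gclc without WT TAM 3, and Gpx1 without any TAM array other than KO TAM 1. In the unfolded protein response 1 of 14 rose and 2 fell, where 4.97% of all genes rose and 7.26% fell. They were the chaperone gene Dnajb9 (0.60 ± 0.11, kept) against Creld2 (-0.59 ± 0.11) and Pdia6 (-0.48 ± 0.11, lost without WT TAM 1, WT TAM 3 or KO TAM 3, adjusted p up to 0.0557). Of 13 iron handling genes Spic and Cp rose. Cp, which encodes the ferroxidase ceruloplasmin, read 7.24, 9.62 and 7.78 in WT TAMs and 9.56, 11.46 and 11.48 in KO TAMs (2.62 ± 0.56, adjusted p = 0.0104, 0.105 on the 6 TAM arrays alone), and WT TAM 2 and KO TAM 1 overlapped.

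**Figure D3:**
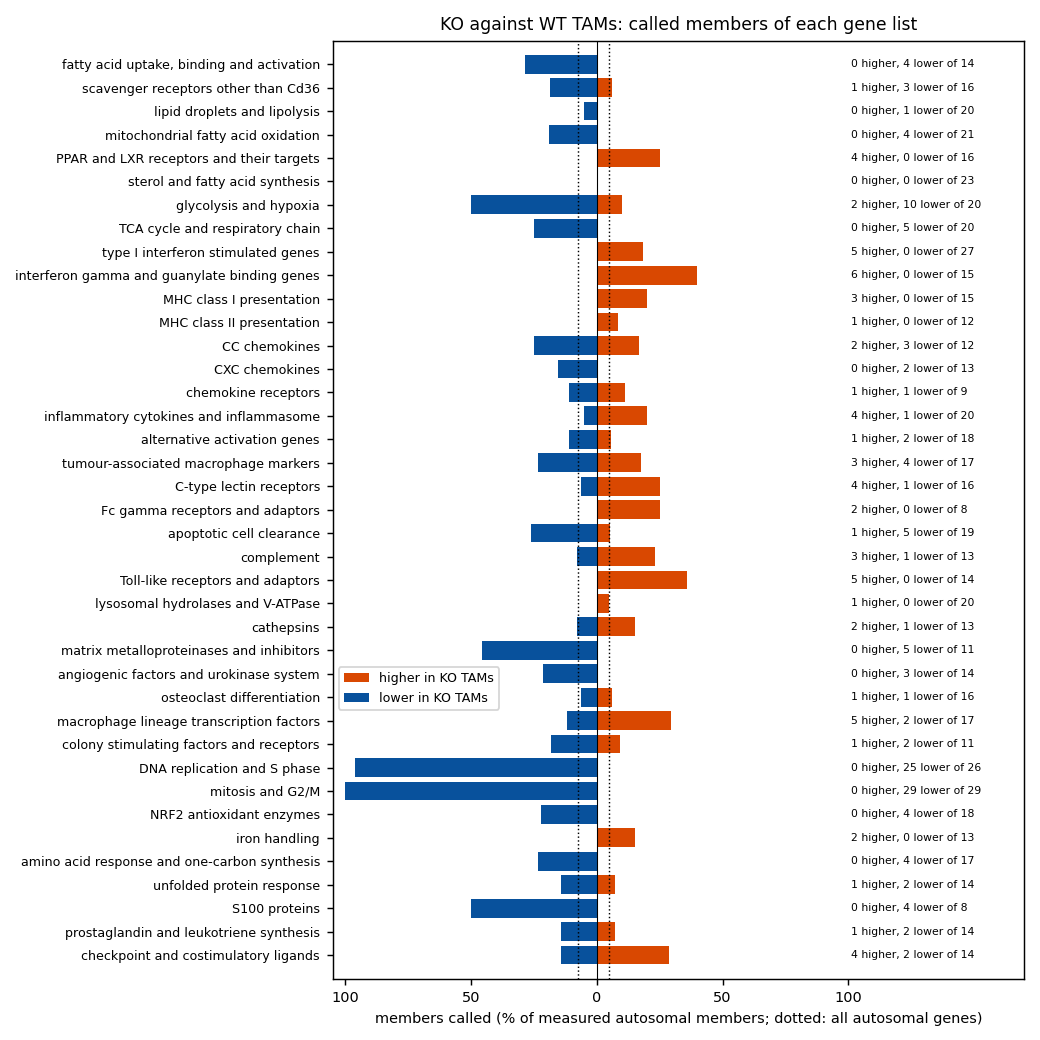
Share of the measured autosomal members of 39 gene lists that were called in KO against WT TAMs (horizontal axis, percent, higher to the right and lower to the left), with the counts at the right edge. Dotted lines mark 4.97% higher and 7.26% lower over all autosomal genes, and the longest bars are the 29 of 29 mitosis and 25 of 26 S phase genes that fell.

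C-type lectin receptors of the Clec4a cluster rose with little spread. Clec4a3, a C-type lectin of myeloid cells, read 10.82, 10.59 and 10.91 in WT TAMs and 11.94, 12.06 and 12.06 in KO TAMs, 2.37-fold higher (1.25 ± 0.09, adjusted p = 3.51e-05). Clec4a2 read 8.78, 9.04 and 8.82 and then 9.52, 10.03 and 10.09 (1.0 ± 0.13, adjusted p = 0.000695), and Clec4a1 rose by 0.61. Clec4b1 rose by 1.40 ± 0.26 (adjusted p = 0.005, 0.0759 on the 6 TAM arrays alone). Of 16 measured C-type lectin genes, a list that does not hold Clec4a4, 4 rose and 1 fell, and 3 of the rises were kept. The gene that fell was Clec5a, a lectin that signals through an activating adaptor, at 9.31, 8.44 and 9.66 and then 8.01, 6.63 and 6.37 (-2.13 ± 0.38, adjusted p = 0.00356). The Clec4a genes are close paralogs, as are the Gbp, H2 and Tmem176 genes, and whether their probe sets share signal was not tested.

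Genes of Fc gamma receptors and their adaptors rose in 2 of 8 cases and fell in 0, where 4.97% of all genes rose. Fcgr4, an activating receptor for IgG, read 11.28, 11.24 and 10.94 in WT TAMs and 12.14, 12.02 and 12.11 in KO TAMs, 1.92-fold higher (0.94 ± 0.09, adjusted p = 0.000164), and its call was kept. Syk, the kinase downstream of these receptors, rose by 0.50 ± 0.11 (adjusted p = 0.00985).

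Genes of Toll-like receptors and their adaptors rose in 5 of 14 cases and fell in 0, with a median of 0.33, where 4.97% of all genes rose. Tlr9 read 7.22, 7.94 and 7.27 in WT TAMs and 8.42, 9.71 and 9.96 in KO TAMs (adjusted p = 0.00257). Tlr1, which takes part in sensing bacterial lipopeptides, read 9.94, 9.30 and 10.07 and then 10.47, 11.29 and 11.58 (1.34 ± 0.25, adjusted p = 0.00432). Ly86, which pairs with a Toll-like protein on B cells and macrophages, read 11.72, 11.49 and 11.67 and then 12.30, 12.35 and 12.32 (0.70 ± 0.08, adjusted p = 0.000352), and was the 1 member that kept its call. Tlr6 rose by 0.70 ± 0.15. The KO TAM level of the list, at 9.50, 9.63 and 9.80 on the 3 arrays, was near that of KO macrophages (9.71 to 9.77), and the WT TAM level, at 9.18, 9.06 and 9.25, was below that of WT macrophages (9.51 to 9.57).

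Interferon gamma and guanylate binding genes rose in 6 of 15 cases and fell in 0, with a median of 0.76, where 4.97% of all genes rose. Guanylate binding proteins are GTPases that interferons induce and that attack intracellular vacuoles. Gbp7 read 9.49, 9.41 and 9.67 in WT TAMs and 10.74, 10.40 and 10.70 in KO TAMs, 2.13-fold higher (1.09 ± 0.11, adjusted p = 0.000148). Gbp5 read 5.82, 5.44 and 5.62 and then 6.94, 6.46 and 7.42 (1.32 ± 0.25, adjusted p = 0.00479). These 2 calls were kept, and the groups did not overlap in either. Gbp3 (1.01 ± 0.17) and the DNA-binding Ifi204 (0.81 ± 0.17) rose as well, while the chemokine gene Cxcl9 had low levels on every TAM array (4.26 to 4.84) and was not called (0.21 ± 0.17, adjusted p = 0.506). In macrophages 2 genes of the list rose and 1 fell.

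Their promoters are shown because the interferon response element GAAANNGAAA (N is any base), searched on both strands, was found before 8 of 11 genes of this list with a sequence. The motif is in capitals and lies on the strand opposite to the gene.
Gbp5 (chr3:142496684-142496933, plus strand): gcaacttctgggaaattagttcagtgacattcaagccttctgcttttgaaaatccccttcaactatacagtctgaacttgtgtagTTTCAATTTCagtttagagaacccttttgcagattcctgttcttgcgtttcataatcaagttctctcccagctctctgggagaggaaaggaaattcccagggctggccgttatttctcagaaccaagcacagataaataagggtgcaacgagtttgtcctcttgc
Gbp7 (chr3:142530086-142530335, plus strand): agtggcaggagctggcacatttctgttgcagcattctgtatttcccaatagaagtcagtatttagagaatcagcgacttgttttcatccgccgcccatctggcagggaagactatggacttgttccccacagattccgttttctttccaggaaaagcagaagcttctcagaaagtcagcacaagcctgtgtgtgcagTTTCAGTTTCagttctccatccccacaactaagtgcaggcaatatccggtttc

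It starts 165 bases before the start of Gbp5 and 53 bases before that of Gbp7. The letters were found before 8 of 19 type I interferon genes, before 2.99% of the 16221 autosomal genes, and before 6.13% of the genes that rose and 2.28% of those that fell.

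The type I interferon list differed between KO arrays more than between genotypes. Its mean level was 8.55, 9.36 and 9.11 on WT TAM 1, 2 and 3 and 8.83, 9.97 and 10.25 on KO TAM 1, 2 and 3. KO TAM 1 was the lowest KO array in all 27 measured genes and lay below WT TAM 2 in 22 of them, while KO TAM 2 and 3 lay above every WT TAM array in 25. Of the 27 genes 5 rose and 0 fell, and 0 calls were kept, although 26 of the differences were above 0, with a median of 0.64. The helicase sensor Ifih1 read 9.72, 10.23 and 9.99 and then 10.34, 10.85 and 11.02 (0.76 ± 0.16, adjusted p = 0.00962), and Trim30a rose by 0.77 ± 0.16 (adjusted p = 0.00772). The nucleic acid sensor Zbp1 (0.89 ± 0.26) and Parp14 (0.74 ± 0.17) lost their call without WT TAM 1, WT TAM 3, KO TAM 2 or KO TAM 3, and Zbp1 also without WT TAM 2 (adjusted p up to 0.152 and 0.0585). Without WT TAM 2 and KO TAM 1 25 of the 27 were called higher. By list mean these were the highest WT and the lowest KO array, so leaving them out widens the difference by construction.

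Of 15 genes of MHC class I presentation 3 rose and 0 fell, where 4.97% of all genes rose. H2-T23 rose by 0.72 ± 0.14, H2-K1 by 0.66 ± 0.14 and the immunoproteasome subunit Psmb10 by 0.45 ± 0.11, the latter lost without WT TAM 2 or KO TAM 3 (adjusted p up to 0.0751). In class II the transactivator Ciita was the 1 of 12 called (0.44 ± 0.11), and it lost its call without WT TAM 1, WT TAM 2, KO TAM 1 or KO TAM 3 (up to 0.0861). H2-Ab1, a class II chain, read 8.05, 7.69 and 7.86 in WT TAMs and 10.05, 7.46 and 7.08 in KO TAMs and was not called (0.33 ± 0.56, adjusted p = 0.781). KO TAM 1 was the highest and KO TAM 3 the lowest array, and without WT TAM 2 and KO TAM 1 the sign turned (-0.69, adjusted p = 0.0154).

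**Figure D4:**
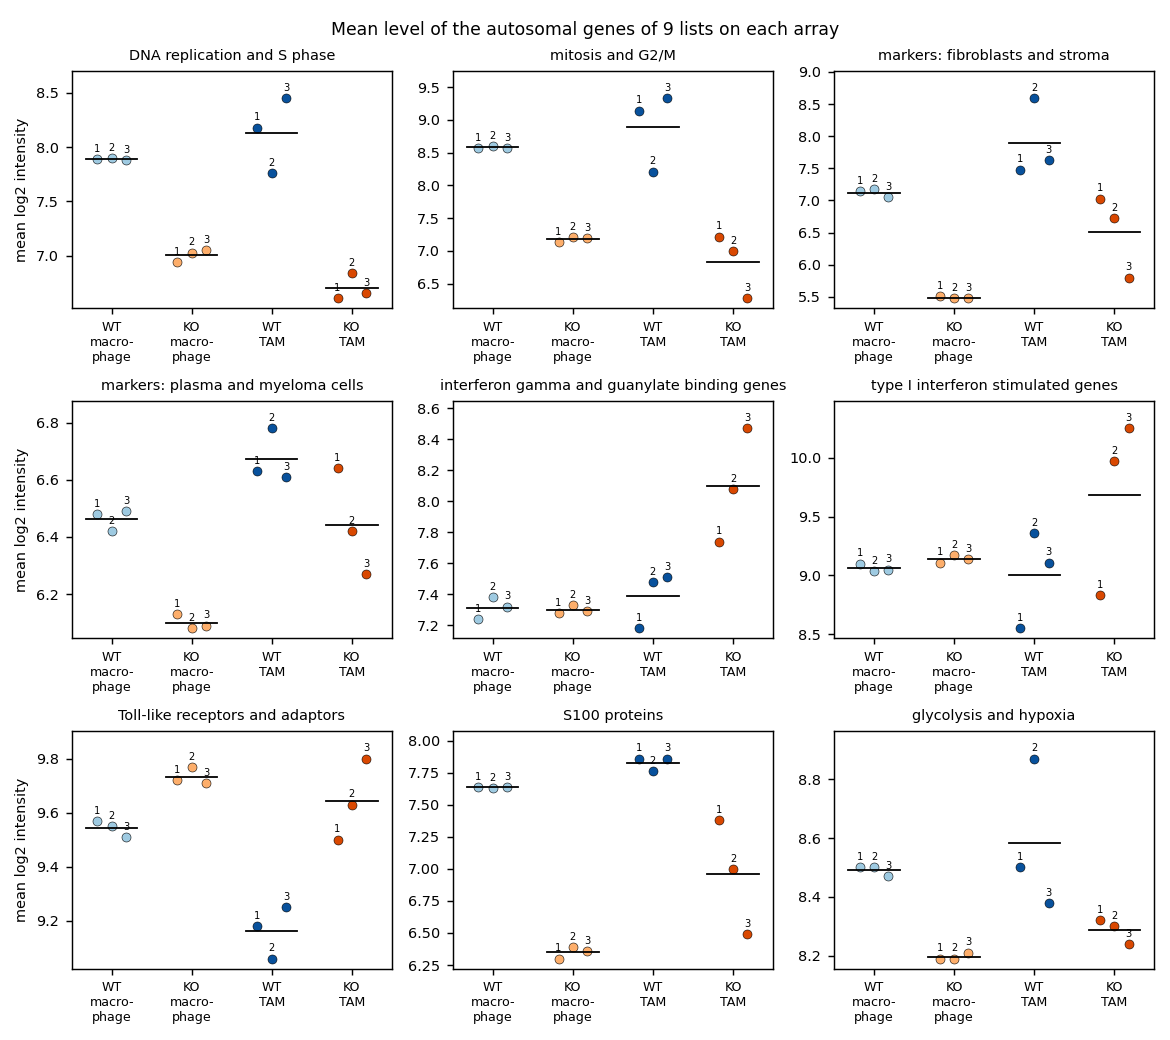
Mean log2 intensity (vertical axes, each scaled to its list) of the measured autosomal genes of 9 lists on the 12 arrays, with the group mean as a line. The mitosis mean was 8.21 to 9.33 on WT TAM arrays and 6.28 to 7.22 on KO TAM arrays, and the type I interferon mean of KO TAM 1 (8.83) lay among the WT TAM arrays (8.55 to 9.36).

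Among chemokines Ccl2 and Ccl7 fell while Ccl5 and Ccl8 rose. Ccl2, the main monocyte attractant, read 11.18, 10.90 and 11.22 in WT TAMs and 9.30, 9.44 and 10.16 in KO TAMs, 2.77-fold lower (-1.47 ± 0.18, adjusted p = 0.00043). Ccl7, its neighbour with a like function, read 11.57, 10.93 and 11.55 and then 9.99, 9.88 and 10.55 (-1.21 ± 0.21, adjusted p = 0.003). Both calls were kept, and KO TAM 3 was the highest KO array in both. Ccl5, which attracts T cells, read 6.31, 7.07 and 6.63 and then 7.77, 7.84 and 9.87 (1.82 ± 0.43, adjusted p = 0.0168), a call lost without WT TAM 1 or WT TAM 3 (up to 0.0615). Ccl8 read 9.39, 6.79 and 7.87 and then 10.96, 9.27 and 10.44 (2.21 ± 0.53, adjusted p = 0.0187), with overlapping groups and a call lost without WT TAM 3 or KO TAM 3 (up to 0.061). Of 12 CC chemokine genes 2 rose and 3 fell, where 4.97% of all genes rose and 7.26% fell. Of 13 CXC chemokine genes 2 fell, Cxcl12 and the neutrophil attractant gene Cxcl1 (-0.86 ± 0.25, lost without WT TAM 1, WT TAM 3, KO TAM 2 or KO TAM 3, up to 0.166). The receptor gene Ccr3 fell (-1.67 ± 0.31) and Ccrl2, which presents chemerin, rose (0.71 ± 0.19, lost with WT TAM 2, KO TAM 1 or KO TAM 3 left out, up to 0.0708).

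Among cytokines Il1rn, the antagonist of the interleukin-1 receptor, fell and Il10, an anti-inflammatory cytokine, rose. Il1rn read 9.44, 9.47 and 9.62 in WT TAMs and 8.36, 7.67 and 8.03 in KO TAMs, 2.80-fold lower (-1.49 ± 0.16, adjusted p = 0.000226, kept). Il10 read 8.49, 7.20 and 8.19 and then 8.67, 9.83 and 9.93 (1.51 ± 0.33, adjusted p = 0.0119), a call lost without KO TAM 2 (adjusted p = 0.0527). Il18 (0.69 ± 0.12) and Nfkbiz (0.94 ± 0.19), a nuclear regulator of NF-kappaB targets, rose. Of 20 genes 4 rose and 1 fell. The inflammatory cytokine genes Tnf (0.02 ± 0.50, adjusted p = 0.99), Il1b (0.88 ± 0.34, adjusted p = 0.124) and Il6 (-0.02 ± 0.46, adjusted p = 0.986) and the nitric oxide synthase gene Nos2 (0.19 ± 0.15, adjusted p = 0.504) were not called. Tnf spread from 8.51 to 11.09 over the KO TAM arrays, and Il6 read 6.22 on WT TAM 2 against 3.97 to 5.08 on the other TAM arrays. Without WT TAM 2 and KO TAM 1 Tnf (0.515, adjusted p = 0.0276) and Il6 (0.951, adjusted p = 0.00119) were called higher, as was Il1b without KO TAM 2 (1.41, adjusted p = 0.000949).

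Alternative activation genes were called in 3 of 18 cases, a share near the 12.2% of all genes. Tgm2, a transglutaminase marker of alternatively activated macrophages, read 9.35, 9.76 and 9.28 in WT TAMs and 8.64, 8.37 and 8.50 in KO TAMs (-0.96 ± 0.13, adjusted p = 0.000671). Il10ra, the interleukin-10 receptor, read 9.11, 8.99 and 8.97 and then 9.84, 9.84 and 9.77 (0.80 ± 0.07, adjusted p = 0.000115). Both were kept, and the third was Fn1. The arginase gene Arg1 had low levels (4.16 to 5.61) and was not called (-0.23 ± 0.28, adjusted p = 0.675), nor was the mannose receptor gene Mrc1 (-0.54 ± 0.27, adjusted p = 0.231), which was called lower without KO TAM 1 (-0.885, adjusted p = 0.013).

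Tumour-associated macrophage markers went both ways, with 3 higher and 4 lower of 17, where 4.97% of all genes rose and 7.26% fell. The tetraspanin gene Cd9 read 9.97, 9.75 and 9.98 in WT TAMs and 8.80, 8.13 and 7.21 in KO TAMs, 3.62-fold lower (-1.85 ± 0.29, adjusted p = 0.00186, kept). With the mean of its 2 probe sets the difference was -0.873 (adjusted p = 0.0072). Trem2, a lipid-sensing receptor, read 10.99, 10.92 and 11.16 and then 10.74, 10.03 and 8.87 (-1.15 ± 0.33, adjusted p = 0.0419), a call lost without any of WT TAM 1, 2 and 3 and KO TAM 2 (up to 0.118). Cd274, which encodes the checkpoint ligand PD-L1, read 10.39, 10.55 and 10.10 and then 11.07, 10.90 and 11.54 (0.82 ± 0.15, adjusted p = 0.00446, 0.0707 on the 6 TAM arrays alone). The melanosomal glycoprotein gene Gpnmb was at 12.81 to 13.26 on all 6 arrays and not called (-0.23 ± 0.10, adjusted p = 0.166), but was without KO TAM 1 (-0.32, adjusted p = 0.0282). Of 14 checkpoint and costimulatory genes 4 rose and 2 fell. Havcr2, the checkpoint receptor TIM-3, fell by 1.30 ± 0.16 (kept), Cd86 rose (1.67 ± 0.46) and Tnfsf9 fell (-1.59 ± 0.40), the latter 2 lost with WT TAM 1, KO TAM 2 or KO TAM 3 left out, and Cd86 also without WT TAM 3 (up to 0.129 and 0.0917).

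Genes for the clearance of apoptotic cells fell in 5 of 19 cases and rose in 1. The bridging protein gene Mfge8 read 9.33, 9.74 and 9.72 in WT TAMs and 9.17, 7.63 and 6.21 in KO TAMs (-1.93 ± 0.51, adjusted p = 0.028), a call lost without any of WT TAM 1, 2 and 3 and KO TAM 2 (up to 0.0812). Anxa1 (-1.37 ± 0.28) and the integrin Itgav (-0.82 ± 0.15, or -0.379 and not called with the mean of its probe sets, adjusted p = 0.0568) fell, and the receptor kinase gene Mertk rose (0.52 ± 0.13, lost without WT TAM 1 or WT TAM 3, up to 0.0989). Of 13 complement genes 3 rose and 1 fell, where 4.97% of all genes rose and 7.26% fell. Cfb (1.84 ± 0.52), Cd55 (2.12 ± 0.62) and C4b (1.10 ± 0.31) rose and the integrin Itgax fell (-1.46 ± 0.34), and all 4 lost their call with WT TAM 3, KO TAM 2 or KO TAM 3 left out (up to 0.133, 0.158, 0.132 and 0.0679). C4b lost it also without WT TAM 2, and the other 3 genes without WT TAM 1.

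Among transcription factors of the macrophage lineage 5 of 17 rose and 2 fell, where 4.97% of all genes rose and 7.26% fell. Irf8, which directs monocyte and macrophage development, read 8.68, 8.70 and 8.45 in WT TAMs and 9.19, 9.31 and 9.29 in KO TAMs (0.66 ± 0.09, adjusted p = 0.000706), and Bhlhe41, a transcriptional repressor, read 8.72, 8.81 and 8.80 and then 8.21, 7.73 and 7.81 (-0.86 ± 0.13, adjusted p = 0.00149). Both calls were kept, but with the mean of a gene's probe sets that of Irf8 was lost (0.371, adjusted p = 0.0516). Its relative Bhlhe40 fell by 0.91 ± 0.27 and lost its call without WT TAM 1, WT TAM 3, KO TAM 2 or KO TAM 3 (up to 0.171). The macrophage growth factor gene Csf1 read 9.02, 9.95 and 9.24 and then 8.40, 7.67 and 6.61 (-1.84 ± 0.36, adjusted p = 0.00579). The granulocyte receptor gene Csf3r, also counted among the neutrophil markers, rose by 1.28 ± 0.16, and Csf2ra fell by 0.60 ± 0.09, both kept. Of 12 neutrophil markers 10 lay below 6 on all arrays.

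Osteoclast genes were called in 2 of 16 cases, lysosomal genes in 1 of 20 and eicosanoid genes in 3 of 14, where 12.2% of all genes were called. Acp5 rose (1.42 ± 0.41) and Ctsk fell (-1.28 ± 0.38) among 16 osteoclast genes, and both lost their call with WT TAM 1, KO TAM 2 or KO TAM 3 left out, Acp5 also without WT TAM 3 and Ctsk also without WT TAM 2 (up to 0.15 and 0.164). The acid ceramidase gene Asah1 rose by 0.47 ± 0.08 and was the 1 of 20 lysosomal genes called (kept). Of 13 cathepsins Ctsc (0.46 ± 0.09) and Ctsh (0.49 ± 0.10) rose. Of 14 eicosanoid genes Hpgds rose (0.39 ± 0.09, lost without KO TAM 3, adjusted p = 0.0603), and Ltc4s (-0.69 ± 0.12, kept) and Alox5 (-0.82 ± 0.22, lost without any KO TAM array, up to 0.0733, and with the mean of its probe sets, 0.0766) of leukotriene synthesis fell.

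Some markers of other cell types were called as well, where 4.97% of all autosomal genes rose and 7.26% fell. Ccnd2 of the plasma cell list fell (-1.93 ± 0.35) and Slamf7 rose (0.38 ± 0.09, lost without WT TAM 1 or KO TAM 3, adjusted p up to 0.0533). Of 11 B cell markers Cd79b (1.50 ± 0.44) and Cd22 (1.22 ± 0.32) rose and Ebf1 (-1.83 ± 0.43) fell, and each lost its call without KO TAM 3 (adjusted p up to 0.167 for Cd79b, 0.107 for Cd22 and 0.061 for Ebf1), Cd79b and Cd22 also without WT TAM 1, WT TAM 3 or KO TAM 2. Of 11 endothelial markers Pecam1, also a myeloid adhesion molecule, rose (1.71 ± 0.31), and Kdr (-1.27 ± 0.34) and Eng (-0.86 ± 0.24) fell, both lost without WT TAM 1, WT TAM 3, KO TAM 2 or KO TAM 3 (up to 0.116 and 0.136). Of 9 resident peritoneal markers Cd5l rose, and Tgfb2 (-1.95 ± 0.33) and Icam2 (-0.77 ± 0.15) fell and were kept. Of 11 dendritic cell markers Itgax and Fscn1 (-0.95 ± 0.22, lost without KO TAM 3, adjusted p = 0.053) fell. Limma called 0 of 10 mast cell markers, all 10 below 6 on all arrays, and 0 of 5 erythroid and megakaryocyte markers, with an unadjusted p under 0.05 in 0 and 2 of them.

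To ask where the genotype difference in TAMs stood apart from that in macrophages, which shares no array with it, the difference of the differences was tested. Both contrasts came from 1 fit with 1 spread per gene, so the 2 sets of calls are not independent. Leaving out KO TAM 1 alone changed the macrophage count from 2387 to 3296. In macrophages 1081 genes rose (5.13%) and 1306 fell (6.2%). In both cultures 1225 genes were called in the same direction, 47.5% of the TAM calls and 51.3% of the macrophage calls, and 7 in opposite directions. Across autosomal genes, which are not independent replicates, the 2 differences correlated at 0.70. The interaction was called in 42 genes (0.199%), 17 of which were also called in TAMs. Without WT TAM 2 and KO TAM 1 it was called in 1447 genes, and without single arrays in 14 to 425.

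Among the genes called in both tests Clec4a4, Cmklr1, Clec4a3, Bcl2 and Tgm2 differed between genotypes in TAMs and were not called in macrophages. Cmklr1, the receptor of the chemoattractant chemerin, read 5.82, 6.05 and 6.13 in WT TAMs and 7.50, 7.37 and 7.55 in KO TAMs, 2.79-fold higher (1.48 ± 0.13, adjusted p = 7.7e-05, kept). In macrophages it read 6.05, 5.93 and 5.59 in WT and 5.85, 5.92 and 5.70 in KO cells. The 3 KO TAM arrays thus stood above the 9 others, and the interaction was 1.51 ± 0.18 (adjusted p = 0.00746).

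Bcl2, an inhibitor of apoptosis, read 8.71, 8.89 and 9.12 in WT TAMs and 7.58, 7.80 and 7.71 in KO TAMs, 2.32-fold lower (-1.21 ± 0.11, adjusted p = 8.79e-05, kept). With the mean of its 2 probe sets the difference was -0.481 (adjusted p = 0.00661). In macrophages it read 7.65, 7.58 and 7.48 in WT and 7.45, 7.46 and 7.48 in KO cells, so that here the 3 WT TAM arrays stood above all others (interaction -1.11 ± 0.15, adjusted p = 0.0122). In Tgm2 the WT TAM arrays were highest too, with 7.68 to 7.76 in WT and 7.80 to 8.07 in KO macrophages (interaction -1.17 ± 0.18, adjusted p = 0.0281).

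Clec4a4 was high in macrophages of both genotypes, at 7.56 to 7.69 in WT and 8.19 to 8.21 in KO cells, and low in WT TAMs (4.62 to 5.33). The interaction was 1.99 ± 0.25 (adjusted p = 0.00859). In Clec4a3 the WT TAM arrays (10.59 to 10.91) again lay below the 9 others (11.77 to 12.06), with an interaction of 1.07 ± 0.13 (adjusted p = 0.00777). Gm5150 rose in TAMs (1.03 ± 0.23) and fell in macrophages (-1.80, interaction 2.83 ± 0.33), and its call in TAMs was lost without WT TAM 1 or WT TAM 3 (up to 0.0527). H2-M2 fell in TAMs (-0.97 ± 0.21) and in macrophages (-3.69), with an interaction of 2.72 ± 0.30.

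**Figure D5:**
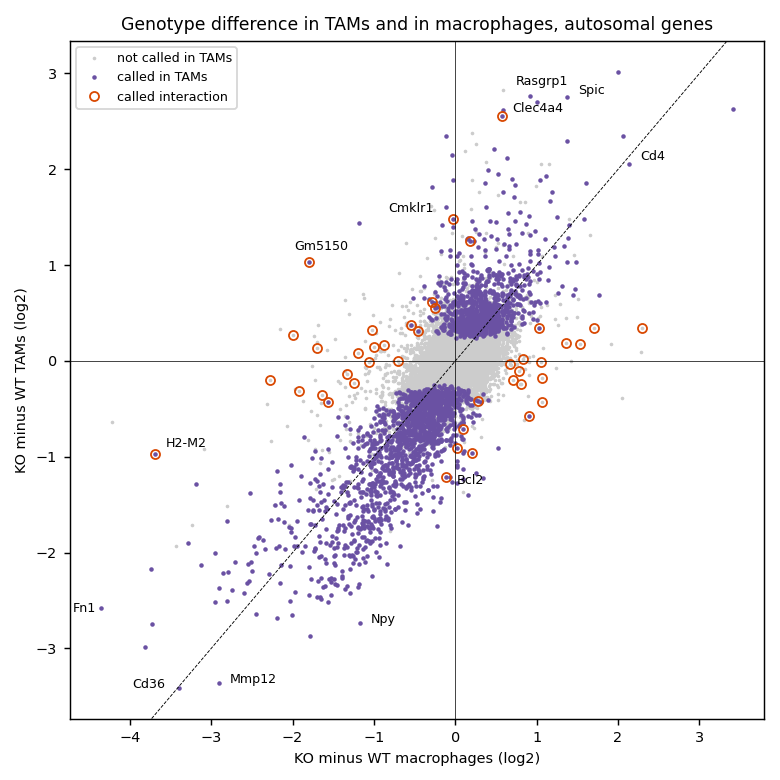
KO minus WT difference in macrophages (horizontal axis, log2) against that in TAMs (vertical axis, log2), 1 point per autosomal gene, with genes called in TAMs in purple and the 42 genes with a called interaction ringed. The dashed line marks equal differences: Cd36 (-3.39 and -3.41) and Cd4 (2.14 and 2.06) lie near it, and Cmklr1 (-0.03 and 1.48) and Bcl2 (-0.11 and -1.21) lie off it.

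Among 422 microRNA loci on the array 22 were called (5.21%), 19 higher (4.5%) and 3 lower (0.711%), where 12.2% of all autosomal genes were called, 4.97% higher and 7.26% lower. The probe sets read transcripts of the locus, and mature microRNAs were not measured. Of 5 named loci 4 had a mature entry, and Mir1949 is named only. The mature sequences are shown, from RefSeq (GRCm38.p6), with the seed (bases 2 to 8), which pairs with target RNAs, in capitals.
mmu-miR-340-5p: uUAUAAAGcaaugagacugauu
mmu-miR-340-3p: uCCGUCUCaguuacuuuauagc
mmu-miR-142a-5p: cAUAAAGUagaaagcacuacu
mmu-miR-142a-3p: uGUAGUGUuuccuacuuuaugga
mmu-miR-23b-5p: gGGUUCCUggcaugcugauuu
mmu-miR-3961: uGCCCUCAgcucaguugga

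No seed was shared between these 6. Mir340 read 7.15, 7.31 and 7.27 in WT TAMs and 8.15, 8.05 and 7.75 in KO TAMs (0.75 ± 0.13, adjusted p = 0.00283), and of the 5 named loci it alone kept its call. Mir23b read 7.31, 7.62 and 7.50 and then 6.98, 6.58 and 6.12 (-0.91 ± 0.18, adjusted p = 0.00678, 0.0701 on the 6 TAM arrays alone). Mir142, a locus of blood cells, read 6.20, 6.54 and 5.97 and then 7.27, 6.64 and 7.14 (0.78 ± 0.22, adjusted p = 0.0358) and lost its call without WT TAM 1, WT TAM 3, KO TAM 1 or KO TAM 3 (up to 0.128). Mir3961 rose (1.04 ± 0.25) and Mir1949 fell (-1.09 ± 0.25), and these calls were lost without WT TAM 1 for Mir3961 (adjusted p = 0.0619) and without WT TAM 3 or KO TAM 2 for Mir1949 (up to 0.0592).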

How the data were processed

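RNA of the 12 cultures was hybridised to single-channel arrays. The authors deposited 1 table of intensity values made with RMA, per the submitters' processing notes, which also name limma and give no version. The build behind the probe sets was not given in the sources used here. RMA brings arrays to a common distribution, which removes any shift that most genes share. The deposited values were linear (lowest 3.57, array medians 31.3 to 33.3) and their log2 was taken with no pseudocount. Of 41345 probe sets 23521 had 1 gene symbol, 1814 several and 16010 none, and 23328 matched RefSeq (GRCm38.p6) by Entrez identifier.

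The log2 values of 22180 genes were fitted with limma 3.58.1 in R 4.3.3 (lmFit, eBayes) as 4 group means over all 12 arrays, with 8 residual degrees of freedom and Benjamini-Hochberg adjustment over the 22180 genes. The fit was tested on simulated data. Groups and replicate numbers came from the titles. Same-numbered TAM arrays deviated from their group means with correlations of 0.28, 0.25 and 0.04, and differently numbered ones with -0.29 to 0.07. The same-numbered KO array had the highest value for each WT array, but for WT TAM 3 it was 0.04 against 0.01 with KO TAM 1. These values do not settle whether the arrays are paired. The main fit did not pair them, and a replicate block was an alternative.

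The text names the 12 largest rises and falls among called genes whose arrays did not overlap (predicted, small RNA, receptor segment and olfactory genes left out), up to 4 called members of each of 50 lists, the 5 largest called microRNA loci, the 8 largest called interactions, and fixed macrophage genes, 177 in all, with exceptions marked. Members, lists and motifs were chosen with earlier results of these data known. Alternatives changed the arrays used, weights, normalization, dim-gene filter (log2 above 6 on 3 arrays), pseudocount (16), probe set rule and eBayes options.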

Additional observations from a re-analysis of the deposited data

Results flagged for a closer look

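The genotype difference itself differed between TAMs and macrophages by the limma interaction test in 10 of the genes named. Values are (KO minus WT in TAMs) minus (KO minus WT in macrophages) on the log2 scale. The interaction was above 0 in Gm5150 (2.83, adjusted p = 0.00673), H2-M2 (2.72, 0.00559), Clec4a4 (1.99, 0.00859), Cmklr1 (1.51, 0.00746), Folr2 (1.13, 0.0171), Clec4a3 (1.07, 0.00777) and Gpnmb (1.03, 0.0111). It was below 0 in Sema7a (-1.47, 0.0371), Tgm2 (-1.17, 0.0281) and Bcl2 (-1.11, 0.0122). In Folr2, a folate receptor of tissue macrophages, the levels were 11.72 to 11.96 in WT and 11.20 to 11.66 in KO TAMs (-0.43 ± 0.11, lost without WT TAM 1, WT TAM 3, KO TAM 2 or KO TAM 3, adjusted p up to 0.107), and 11.21 to 11.33 and 9.65 to 9.78 in macrophages (-1.56). Gpnmb was lower in KO macrophages (-1.25) and not called in TAMs (-0.23). Sema7a, a semaphorin, was lower in KO TAMs (-0.57 ± 0.17, lost without any WT TAM array or KO TAM 3, adjusted p up to 0.132) and higher in KO macrophages (0.91).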

How the results depend on the processing

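Over the alternatives the count of genes called in KO against WT TAMs was 608 on the TAM arrays alone, 4511 with array weights and 4280 without WT TAM 2 and KO TAM 1, and 1659 to 3533 when 1 array was left out. The macrophage count of 2387 became 4695 with array weights, 4411 with group weights, 4357 without those 2 arrays and 1332 to 3296 when 1 array was left out. The interaction count of 42 became 734 with array weights, 115 with dim genes left out, 102 with a pseudocount of 16, 95 with trend and robust eBayes, 1447 without those 2 arrays, and 14 to 425 when 1 array was left out. With a replicate block the counts were 2433, 2197 and 26, and whether the numbers pair the arrays is not known. Cd36 kept its call throughout (-3.78 to -2.88). Some genes that were not called changed sign. Arg1 ran from -0.507 to 0.216 when 1 array was left out (positive without WT TAM 2) and was 0.0644 with array weights and 0.17 without the 2 arrays. H2-Ab1 ran from -0.599 to 0.889 (negative without KO TAM 1) and was -0.339 with array weights and -0.686 without the 2 arrays. Il6 ran from -0.422 to 0.702 (positive without WT TAM 2, and 0.227 without KO TAM 1) and was 0.569 with array weights and 0.951 without the 2 arrays. Tnf ran from -0.487 to 0.802, with -0.487 without KO TAM 3, and was -0.0311 quantile normalized again and -0.0389 with arrays centred on medians. Vegfa ran from -0.0112 to 0.991 (negative without WT TAM 3). The cause of these shifts was not tested. Of 162 other called genes named, 117 lost the call on the TAM arrays alone, 25 with group weights and 9 without the 2 arrays, and 0 changed sign. Differences moved by over 1.5 times in 10 of them with array weights, 7 with the mean of probe sets and 26 without the 2 arrays. No detection calls were used, so levels under 6 may hold mostly background.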
